A study of Mus musculus with 12 samples.

Results

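The genes described here make, break down, carry and sense gamma-aminobutyric acid (GABA), an amino acid transmitter that islet beta cells also produce. They are Gad1, Gad2, Abat, Aldh5a1, Slc32a1, Slc6a13, Gabbr1, Gabbr2 and Gabra4, chosen by name as 9 of the 24078 entries in a table of islet RNA levels, and all 9 were found. The choice was made with earlier results of these data known. RNA was sequenced from handpicked pancreatic islets of 4 wild-type (WT), 4 heterozygous (Wfs1HZ) and 4 homozygous (Wfs1KO) male mice of the Wfs1tm1Koks line, aged 5 to 6 months, with 1 library per animal. In this line most of exon 8 of Wfs1 is replaced by a LacZ cassette in every cell of the body, so a truncated Wfs1 fused to LacZ can still be made and the islet cells are not the only ones affected. All islets, those of the controls included, were kept overnight in high-glucose medium before the RNA was isolated. Wfs1 encodes a membrane protein of the endoplasmic reticulum, and its loss causes Wolfram syndrome with juvenile diabetes. Levels are RPKM, in which a gene's reads are divided by transcript length and library size, so that genes can be compared with each other.

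GABA is made from glutamate in 1 step by glutamate decarboxylase, which exists as GAD67 (Gad1) and GAD65 (Gad2). It is broken down by GABA transaminase (Abat) to succinate semialdehyde, which the dehydrogenase Aldh5a1 turns into succinate, and in neurons it is loaded into vesicles by Slc32a1 and moved across the cell membrane by carriers such as Slc6a13. Cells sense it through the GABA-A receptor, a chloride channel of subunits such as Gabra4, and through the GABA-B receptor, a G protein-coupled pair of Gabbr1 and Gabbr2. In the pancreas GABA is known as a signal between beta cells and the neighbouring alpha and delta cells.

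Wfs1 itself separated the WT libraries from the rest. Its levels were 33.94, 27.37, 24.85 and 28.43 RPKM in WT islets, 15.03, 4.69, 16.43 and 8.16 in Wfs1HZ islets and 5.08, 6.61, 3.46 and 2.45 in Wfs1KO islets. Every WT library was above every other library, whereas Wfs1HZ and Wfs1KO overlapped through Wfs1HZ replicate 2. Relative to the mean log2 level of 10 beta cell markers, a comparison added after the data were seen, the genotypes did not overlap. On that scale Wfs1 lay at -2.30 to -1.15 in WT, -3.73 to -2.74 in Wfs1HZ and -4.64 to -3.76 in Wfs1KO. Wfs1HZ replicate 2 stood apart in other ways too. It had the fewest reads behind its values (an estimated 2195000, against up to 9566000 elsewhere), a median RPKM over all entries of 3.37 where the other 11 libraries had 0.75 to 1.73, and the lowest median Spearman correlation with the other libraries, 0.86. Differences that rest on it are therefore given with and without it. The libraries also differed in tissue makeup. The summed level of 8 acinar markers ran from 7450 to 286000 RPKM and that of 10 beta cell markers from 12600 to 180000 RPKM, and Mafa, a beta cell transcription factor, was listed at 0 in 10 of the 12 libraries. In whole islets fewer cells of a type and less RNA per cell cannot be told apart.

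Among these genes Gad1 was the single one whose level in Wfs1KO islets stood clear of both other genotypes. The WT islets held 10.40, 3.13, 5.71 and 6.21 RPKM of Gad1. The Wfs1HZ islets held 5.29, 2.53, 10.18 and 6.08 RPKM. The Wfs1KO islets held 0.93, 0.80, 1.53 and 0.37 RPKM. The highest Wfs1KO animal was thus below the lowest animal of either other genotype, while WT and Wfs1HZ covered nearly the same range. The means were 6.36 ± 3.01 (SD, n = 4) in WT, 6.02 ± 3.16 in Wfs1HZ and 0.907 ± 0.479 RPKM in Wfs1KO. On log2(RPKM + 0.1), which understates the change of low genes, Wfs1KO differed from WT by -2.69 (SE 0.48, 95% interval -3.77 to -1.62), that is, 6.47-fold lower. Against Wfs1HZ the difference was -2.58 (SE 0.55, interval -3.81 to -1.35), 5.97-fold lower, and without Wfs1HZ replicate 2 it was -2.93.

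**Figure D1:**
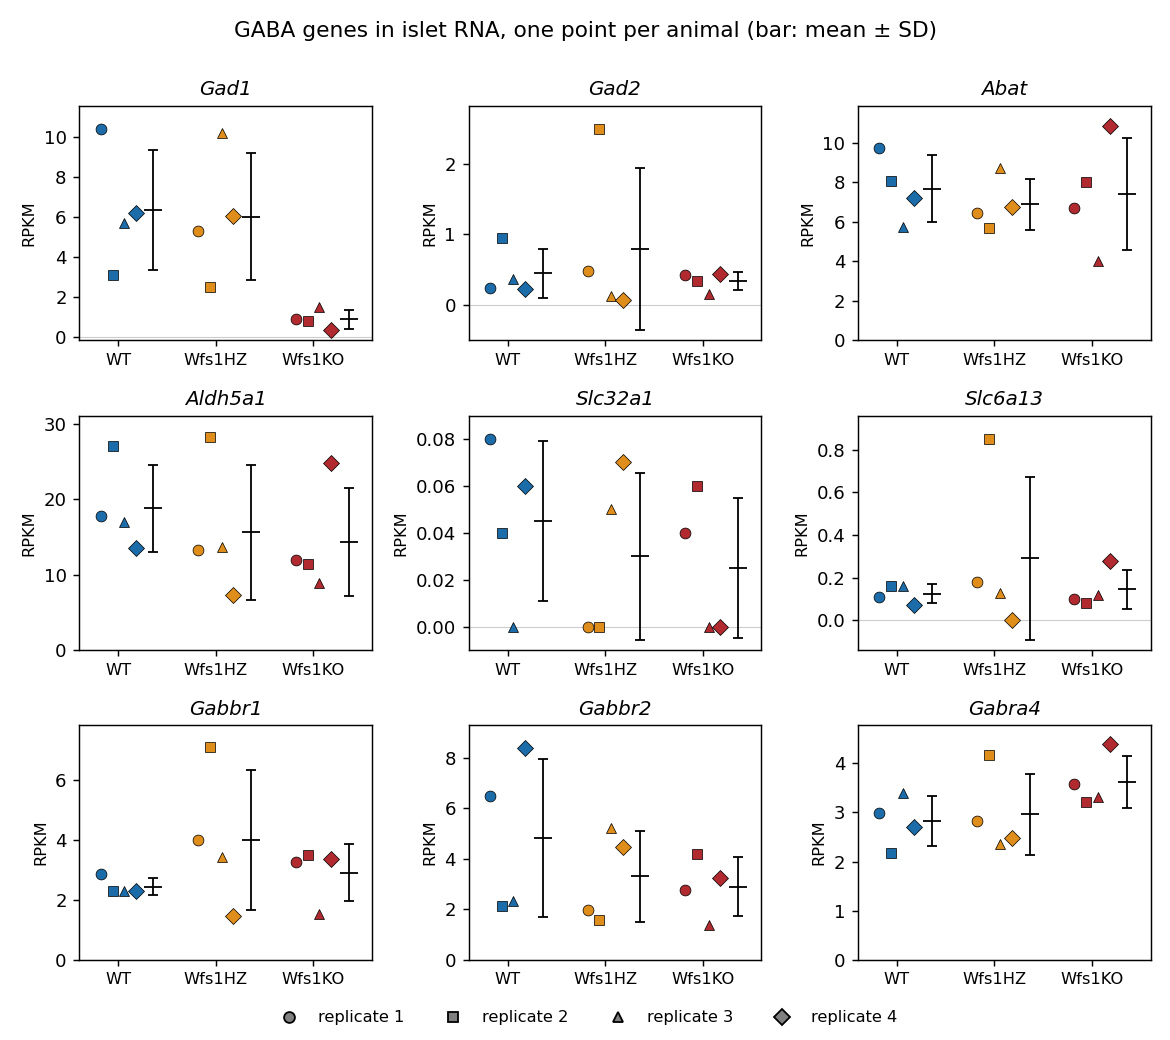
RPKM (linear axis, a separate scale for each gene) of the 9 GABA genes in each of the 12 islet libraries, with WT in blue, Wfs1HZ in orange and Wfs1KO in red. Point shapes give the replicate number and the bars the mean ± SD of 4 animals, and bars reaching below 0 only reflect a wide SD. Gad1 is the panel in which the 4 Wfs1KO points, 0.37 to 1.53 RPKM, lie below all others.

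The limma test across all genes, on log2(RPKM + 0.1), did not call Gad1 at an FDR under 0.05. The study, which used the edgeR package on the same libraries, did call Gad1 at that threshold against WT and against Wfs1HZ. Its RT-PCR also found Gad1 lower in Wfs1KO islets. In limma the unadjusted p was 0.000299 for Wfs1KO vs WT, rank 18 of 21701 entries tested, and the Benjamini-Hochberg adjusted p was 0.342. For Wfs1KO vs Wfs1HZ the unadjusted p was 0.000837, rank 6, and the limma adjusted p was 1. Tested alone by exact two-sided permutation, Gad1 had p = 0.0286 in each of these comparisons, the smallest value that 4 against 4 animals allow. Gad1 was already known from the study to be low in Wfs1KO in these libraries, so this p is no independent support. Of all entries tested, 5.64% had an unadjusted p under 0.05 in Wfs1KO vs WT (1.74% lower in Wfs1KO) and 2.74% had genotypes that did not overlap (0.991% lower). In Wfs1KO vs Wfs1HZ the shares were 2.45% (0.756% lower) and 1.43% (0.502% lower). Gad1 was 1 of 8 tested GABA genes on these measures in each comparison, and the comparisons share the Wfs1KO animals. Between Wfs1HZ and WT, Gad1 differed by -0.12 (SE 0.47, interval -1.17 to 0.94), so a change of about the size seen in Wfs1KO lay outside the interval.

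The values of Gad1 rest on unequal numbers of reads. From the estimated depth and the longest annotated transcript, Gad1 had about 305, 93.8, 55.8 and 133 reads in the WT libraries, but about 29.8, 16.5, 41.3 and 4.08 in the Wfs1KO libraries. On this estimate the lowest value, that of Wfs1KO replicate 4, is close to the 3 reads below which a level could not be measured. The estimated depths lie well below the numbers of sequenced reads that the study gives, so all read numbers here are approximate and may be too low. Without that animal the difference from WT was -2.37, and it was -2.99 to -2.37 whichever animal was left out.

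The other decarboxylase, Gad2, was scarce in every genotype. Its levels were 0.24, 0.95, 0.36 and 0.22 RPKM in WT, 0.47, 2.49, 0.12 and 0.07 in Wfs1HZ, and 0.42, 0.34, 0.15 and 0.43 in Wfs1KO. The 3 genotypes overlapped throughout, and the highest value came from Wfs1HZ replicate 2. Gad2 had only about 2.02 to 48.7 reads per library. Wfs1KO differed from WT by -0.20 (SE 0.52, interval -1.37 to 0.98) and from Wfs1HZ by -0.22 (SE 0.89), and the latter was 0.59 without Wfs1HZ replicate 2. The interval against Wfs1HZ was -2.20 to 1.77. At levels this near 0 the added 0.1 RPKM limits how large a fall can be read. The interval against Wfs1HZ therefore cannot show whether Gad2 fell by as many fold as Gad1. For the comparison with WT, the Gad2 means were 0.335 RPKM in Wfs1KO and 0.443 in WT, and the medians 0.38 and 0.30. Changes of Gad2 within either interval were not detectable.

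Gad1 was the more abundant decarboxylase in WT islets by 3.63 ± 1.44 (SD, n = 4) on the log2 scale and in Wfs1HZ islets by 3.50 ± 2.53. In Wfs1KO islets the excess was 1.14 ± 1.18, and in 1 of these animals, replicate 4, Gad2 was the higher of both. The log2 ratio ranged from 1.62 to 4.95 in WT and from -0.17 to 2.70 in Wfs1KO, so the genotypes overlapped. The difference in ratio was -2.50 between Wfs1KO and WT (exact two-sided permutation p = 0.0571) and -2.36 between Wfs1KO and Wfs1HZ (exact permutation p = 0.171). In Wfs1HZ replicate 2 the ratio was 0.02, and without that library the latter difference was -3.52 (exact permutation p = 0.0571). None of these p-values was under 0.05.

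Because Gad1 is known as a gene of beta cells, it was set against the mean log2 level of 10 beta cell markers in the same library. Over these markers (Ins1, Ins2, Iapp, Slc2a2, G6pc2, Nkx6-1, Pdx1, Ucn3, Slc30a8 and Mafa) the mean was 5.93 to 7.16 in WT, 5.34 to 7.38 in Wfs1HZ and 5.84 to 6.53 in Wfs1KO, and 2 of the 9 that could be tested were lower in Wfs1KO than in WT at an unadjusted limma p under 0.05, as were 1.74% of all entries. Against Wfs1HZ 2 of the 9 were lower as well, beside 0.756% of all entries. Gad1 lay at -3.76, -4.24, -4.08 and -4.47 relative to the markers in WT. In Wfs1HZ it lay at -4.23, -3.95, -4.02 and -4.15, and in Wfs1KO at -6.49, -6.66, -5.13 and -7.08. Thus WT and Wfs1HZ held nearly the same amount of Gad1 per beta cell marker, and all Wfs1KO animals held less than any of them.

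Relative to the markers, Wfs1KO was lower than WT by a log2 difference of -2.20 and than Wfs1HZ by -2.25, each with an exact two-sided permutation p of 0.0286, the smallest possible. Because Gad1 was chosen with its low level in Wfs1KO known, these p-values are no independent support either. Wfs1HZ and WT differed by 0.05 (exact permutation p = 0.771). When the hormones Ins1, Ins2 and Iapp were dropped from the list, an alternative added after the data were seen, the differences were -2.26 from WT and -2.11 from Wfs1HZ. Gad2 differed by 0.29 between Wfs1KO and WT on the same scale (exact permutation p = 0.714).

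Within the 8 WT and Wfs1HZ libraries Gad1 went up and down with these markers. Pearson's r was 0.95 (permutation p = 0.000149, Benjamini-Hochberg adjusted p = 0.00126 over 12 relations computed) and Spearman's rho was 0.95 (adjusted permutation p = 0.0109). Without the 2 libraries farthest from the median, Wfs1HZ replicate 2 and WT replicate 2, r was 0.84. The 4 Wfs1KO animals were too few for a correlation of their own, and no r was pooled over all animals because their Gad1 levels stand apart. Taken 1 by 1, the 9 markers with a mean of at least 1 RPKM gave r from 0.23 (Pdx1) to 0.95 (G6pc2). Levels in a library share its depth and cell makeup, and the relation was looked for after the data were seen.

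**Figure D2:**
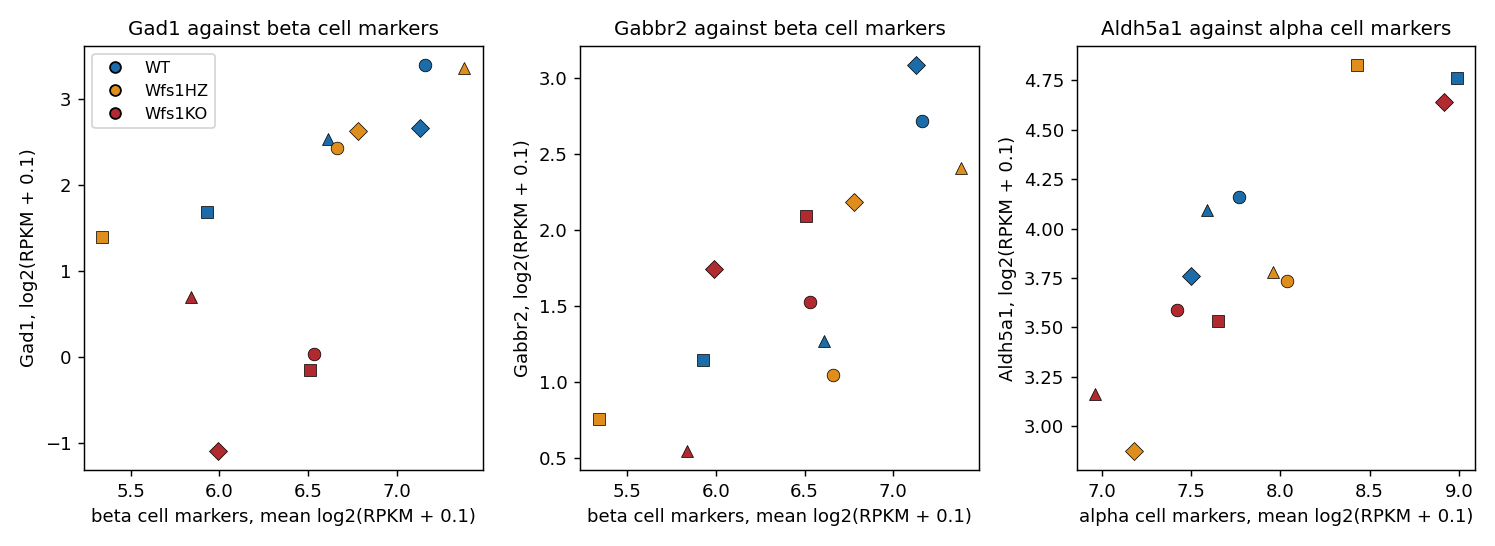
Log2(RPKM + 0.1) of Gad1 and Gabbr2 against the mean of 10 beta cell markers, and of Aldh5a1 against the mean of 4 alpha cell markers, 1 point per library with colours for genotype and shapes for replicate number as in the plot of RPKM by animal. The WT and Wfs1HZ points of Gad1 follow the markers (r 0.95) with all 4 Wfs1KO points below them, whereas in the other panels the genotypes share 1 band (r 0.80 and 0.88 over 12 libraries).

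By group mean the breakdown enzymes were the most abundant of these genes in each genotype, although single libraries held more Gad1, Gabbr1 or Gabbr2 than Abat. Aldh5a1 had the highest RPKM of the 9 in all 12 libraries, with 17.75, 27.02, 17.00 and 13.46 in WT, 13.19, 28.25, 13.64 and 7.24 in Wfs1HZ, and 11.91, 11.46, 8.87 and 24.82 in Wfs1KO. Each genotype thus had 1 animal between 24.82 and 28.25 RPKM and 3 at 17.75 RPKM or below. Wfs1KO differed from WT by -0.46 (SE 0.33, interval -1.22 to 0.29, limma adjusted p = 0.922) and from Wfs1HZ by -0.07 (SE 0.43), or by 0.27 without Wfs1HZ replicate 2. Without Wfs1KO replicate 4 the difference from WT was -0.77, at an unadjusted limma p of 0.0167 and an adjusted p of 0.489.

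Aldh5a1 varied with the alpha cell markers Gcg, Ttr, Irx1 and Irx2. The 3 libraries richest in Aldh5a1, WT replicate 2, Wfs1HZ replicate 2 and Wfs1KO replicate 4, were also the 3 with the highest mean of these markers, 8.99, 8.43 and 8.92 on the log2 scale. They also had the 3 lowest summed levels of acinar markers, 48500, 7880 and 7450 RPKM. Over the 12 libraries r was 0.88 (permutation p = 0.00021, adjusted p = 0.00126) and rho 0.82 (adjusted permutation p = 0.0109), and r was 0.83 without the 2 libraries farthest from the median. Relative to the alpha cell markers, Wfs1KO and WT differed by -0.24 (exact permutation p = 0.257). The part of alpha cell or acinar cell share in the Aldh5a1 level was not tested beyond this.

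Abat, the transaminase, was even across genotypes. It was read at 9.75, 8.08, 5.74 and 7.21 RPKM in WT, 6.43, 5.67, 8.72 and 6.75 in Wfs1HZ, and 6.73, 8.05, 4.02 and 10.88 in Wfs1KO. Both the lowest and the highest animal were Wfs1KO. The log2 difference between Wfs1KO and WT was -0.11 (SE 0.31, interval -0.82 to 0.59), and a difference as large as that of Gad1 lay outside this interval. In Wfs1KO islets Abat was therefore several times above Gad1 (means 7.42 and 0.907 RPKM), while in WT islets the 2 were close (7.70 and 6.36 RPKM) and overlapped.

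Both carriers were near the limit of detection. Slc32a1, the vesicular GABA transporter, was listed at 0 in 5 of 12 libraries and reached 0.08 RPKM at most, about 1 or 2 reads where present. With a mean of 0.0333 RPKM it was under the 0.1 RPKM needed for the test and was the single member left out, so 8 of 9 were tested. Slc6a13, the plasma membrane GABA transporter GAT2, was between 0 and 0.28 RPKM in 11 libraries and at 0.85 RPKM in Wfs1HZ replicate 2, which is about 4.17 reads. At 0 to 4.17 reads per library no difference in Slc6a13 was detectable, and none is read from its log2 differences of 0.08 (Wfs1KO vs WT) and -0.26 (Wfs1KO vs Wfs1HZ).

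The GABA-B receptor genes were present in all libraries at a few RPKM. Gabbr1, which binds GABA, had 2.86, 2.28, 2.28 and 2.29 RPKM in WT, 3.98, 7.08, 3.41 and 1.46 in Wfs1HZ, and 3.24, 3.50, 1.51 and 3.37 in Wfs1KO. The WT animals were close together, 3 of 4 animals in each mutant genotype were above all of them, and 1 in each was below all of them. Wfs1KO differed from WT by 0.19 (SE 0.32, interval -0.54 to 0.92). Wfs1HZ differed from WT by 0.50 (SE 0.46, limma adjusted p = 1), a value that dropping Wfs1HZ replicate 2 brought to 0.16. Dropping Wfs1HZ replicate 4 instead brought it to 0.90, at an unadjusted limma p of 0.0293.

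Gabbr2, which couples the receptor to its G protein, spread more widely. WT animals had 6.50, 2.11, 2.31 and 8.40 RPKM, Wfs1HZ animals 1.97, 1.59, 5.21 and 4.46, and Wfs1KO animals 2.78, 4.17, 1.36 and 3.25. WT was split, with 2 animals above every Wfs1KO animal and 2 within their range. The difference of -0.58 between Wfs1KO and WT (SE 0.53, interval -1.76 to 0.61, limma adjusted p = 0.929) was within the spread between animals. As for Gad1, levels followed the beta cell markers: r was 0.80 over 12 libraries (permutation p = 0.00188, adjusted p = 0.00752), rho was 0.80 (adjusted permutation p = 0.0115), and r was 0.78 without the 2 farthest libraries. Unlike Gad1, Gabbr2 did not set Wfs1KO apart on that scale, where it differed from WT by -0.09 (exact permutation p = 0.829). The remaining 9 of the 12 relations to beta or alpha cell markers had adjusted permutation p of 0.166 or more for r.

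Gabra4, an alpha subunit of the GABA-A receptor, had the narrowest range of the 3 receptor genes over the 12 libraries, although within WT Gabbr1 was narrower. Levels were 2.99, 2.18, 3.39 and 2.71 RPKM in WT, 2.82, 4.17, 2.36 and 2.49 in Wfs1HZ, and 3.57, 3.21, 3.32 and 4.39 in Wfs1KO. The Wfs1KO animals were at the upper end, with 2 of them above every WT animal and all of them above 3 of the 4 WT animals. The difference from WT was 0.36 (SE 0.24, interval -0.19 to 0.91, limma adjusted p = 0.91), and its exact permutation p, two-sided, was 0.0857. The difference from Wfs1HZ was 0.31 (SE 0.34, exact permutation p = 0.171), and 0.48 without Wfs1HZ replicate 2. Neither passed a test.

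**Figure D3:**
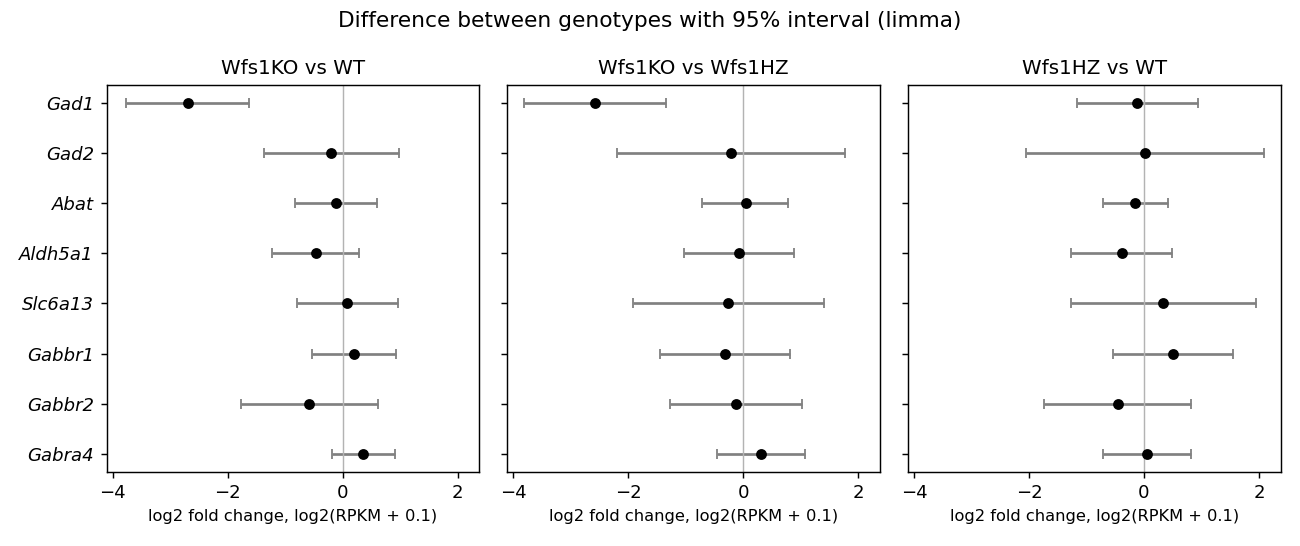
Log2 fold change, on log2(RPKM + 0.1), of the 8 GABA genes that could be tested, with points for the limma estimate and bars for its 95% interval, 1 panel per pair of genotypes. The Gad1 interval lies below 0 in both Wfs1KO panels (-3.77 to -1.62 and -3.81 to -1.35), and every other interval crosses 0.

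Across the genes, 0 of 8 passed an FDR of 0.05 in limma in any comparison, against 3 of 21701 entries in Wfs1KO vs WT (0.0138%) and 0 in each of the others. At an unadjusted p under 0.05 the counts were 1 lower in Wfs1KO vs WT, 1 lower in Wfs1KO vs Wfs1HZ and 0 in Wfs1HZ vs WT, where 2.35% of all entries passed. The median log2 difference of the 8 genes was -0.15, -0.17 and -0.05 in that order, beside medians of 0.07, 0.04 and 0.04 over all entries. Without Wfs1HZ replicate 2 the median of all entries was 0.28 in Wfs1KO vs Wfs1HZ and -0.19 in Wfs1HZ vs WT, so this library moved the whole table. In WT islets the genes ranked by mean RPKM as Aldh5a1 (18.8), Abat (7.70), Gad1 (6.36), Gabbr2 (4.83), Gabra4 (2.82), Gabbr1 (2.43), Gad2 (0.443), Slc6a13 (0.125) and Slc32a1 (0.045). The WT animals overlapped between each neighbouring pair from Abat down to Gabbr1 and between the 2 carriers, and did not overlap between Aldh5a1 and Abat, Gabbr1 and Gad2, or Gad2 and Slc6a13.

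Further genes of the GABA system were taken as lists of 70 genes, of which 69 were found by name and 68 could be tested. In each comparison 1 of 68 was lower at an unadjusted limma p under 0.05 and 0 were higher, beside 1.74%, 0.756% and 1.27% of all entries that were lower, and the medians were 0.07, -0.02 and 0.04. None of the 68 had a limma adjusted p under 0.05.

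The lower gene in Wfs1KO vs WT was Maob, monoamine oxidase B, which oxidises monoamines and takes part in a side route from putrescine to GABA. Maob had 40.70, 21.75, 23.25 and 26.22 RPKM in WT, 12.47, 7.72, 24.61 and 19.67 in Wfs1HZ, and 7.33, 7.26, 6.05 and 15.94 in Wfs1KO. All Wfs1KO animals were below all WT animals, with Wfs1HZ overlapping both. The study's edgeR test of the same libraries called Maob lower in Wfs1KO than in WT at an FDR under 0.05, and its RT-PCR also found Maob lower in Wfs1KO. The p-values of Maob given here are thus no independent support. The difference from WT was -1.67 in Wfs1KO (SE 0.33, limma unadjusted p = 0.000611, adjusted p = 0.435, exact permutation p = 0.0286) and -0.88 in Wfs1HZ (SE 0.36, limma unadjusted p = 0.037, adjusted p = 1). Without Wfs1HZ replicate 2 the Wfs1HZ difference was -0.57 (limma unadjusted p = 0.103), and the unadjusted p was also above 0.05 without Wfs1HZ replicate 1 (difference -0.80), WT replicate 1 (-0.68) or WT replicate 4 (-0.89).

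Odc1, ornithine decarboxylase, makes the putrescine at the start of that route. Wfs1KO differed from Wfs1HZ by -0.67 (SE 0.24, limma unadjusted p = 0.0201, adjusted p = 1), with means of 29.6 and 48.2 RPKM, but WT islets, at 33.0 RPKM, were near Wfs1KO. Its unadjusted p was above 0.05 without Wfs1HZ replicate 1 (difference -0.57), Wfs1HZ replicate 3 (-0.62) or Wfs1KO replicate 2 (-0.60). Aldh9a1, a dehydrogenase in the same list, had 14.9 RPKM in WT and 13.9 in Wfs1KO.

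Glutamate, the substrate of GAD, is supplied by genes that were far more abundant than the decarboxylases. Glud1, glutamate dehydrogenase, had means of 154, 124 and 110 RPKM in WT, Wfs1HZ and Wfs1KO, Slc38a2, a neutral amino acid carrier, 111, 122 and 129 RPKM, and Glul, glutamine synthetase, 98.4, 74.5 and 87.9 RPKM. Of the 12 genes of this group 0 had an unadjusted limma p under 0.05 in any comparison. The difference in Glud1 between Wfs1KO and WT, -0.51 (SE 0.24), had an unadjusted limma p of 0.0661. Genes of GAD partners and its cofactor also gave 0 of 7, including the chaperone Hspa8 (171, 194 and 115 RPKM), the cysteine string protein Dnajc5 (41.9, 42.3 and 45.2 RPKM) and the palmitoyltransferase Zdhhc17 (15.3, 15.7 and 14.8 RPKM).

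Of 6 further genes of GABA transport across the membrane, 0 had an unadjusted limma p under 0.05 in any comparison. Slc6a11 (GAT3) was between 0.03 and 1.22 RPKM and Slc6a12 (BGT1) between 0.15 and 3.90, the top value of each in Wfs1HZ replicate 2. Slc6a6, the taurine transporter, had 73.2, 74.2 and 93.8 RPKM in WT, Wfs1HZ and Wfs1KO, Slc6a8, the creatine transporter, 24.5, 26.2 and 27.6 RPKM, and Lrrc8a, a subunit of the volume-regulated anion channel, 16.5, 20.9 and 20.4 RPKM. Lrrc8a was even in WT (16.23 to 16.79 RPKM) and higher in all 4 Wfs1HZ animals (18.98 to 23.08 RPKM), by 0.33 (SE 0.17, limma unadjusted p = 0.0767), in a comparison where 1.66% of all entries did not overlap (0.576% higher in Wfs1HZ).

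Besides Gabra4, 17 subunits of the GABA-A receptor were examined. Gabrp, the pi subunit, had 0.92 to 19.55 RPKM and was above Gabra4 in 11 libraries. The other 16 had means below 1 RPKM once Wfs1HZ replicate 2 was left out, at most 0.965 (Gabrg3). In that library 12 of these 16 had their highest value, for example 4.74 RPKM of Gabra5 where the others reached 1.24, but so did 46.9% of all entries tested. Of the 17, 16 could be tested and 0 had an unadjusted limma p under 0.05. Gabrp differed between Wfs1KO and WT by -0.27 (SE 0.80). Gabrr2, a rho subunit, was higher in all Wfs1KO animals (0.54 to 1.48 RPKM) than in all Wfs1HZ animals (0.22 to 0.50 RPKM). So were 0.926% of all entries, and its limma adjusted p was 1. The WT animals (0.37 to 1.50 RPKM) overlapped both. Its Wfs1HZ values rest on only about 2.12 to 4.26 reads per library, near the 3 reads below which a level could not be measured.

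**Figure D4:**
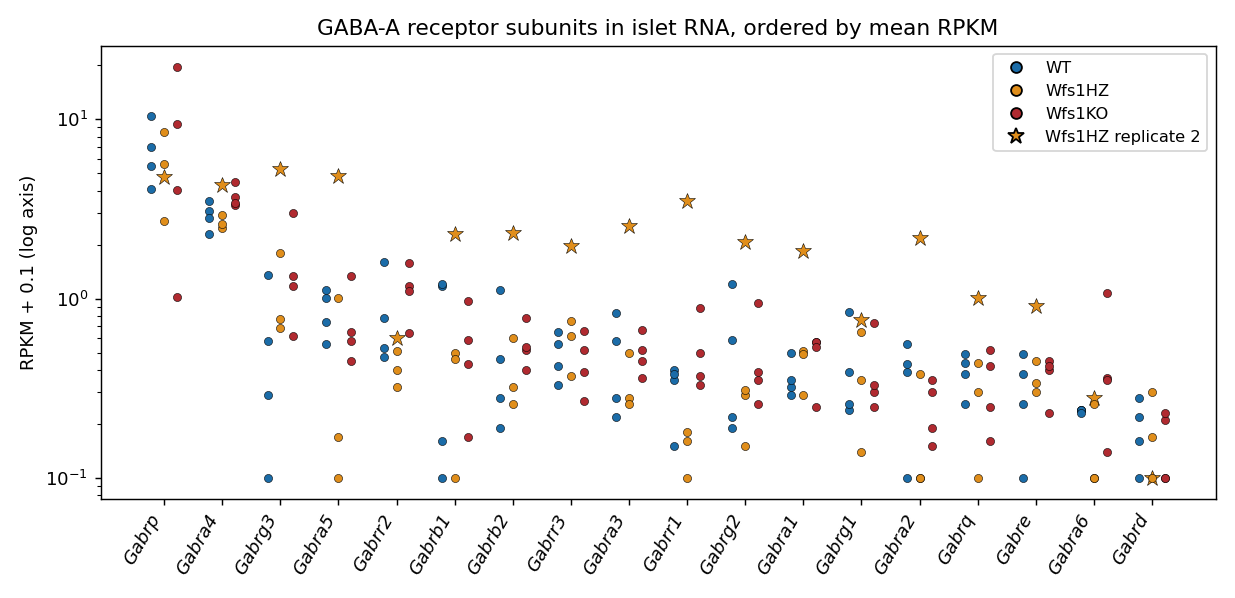
RPKM + 0.1 (log axis) of 18 GABA-A receptor subunits in the 12 islet libraries, ordered by mean RPKM, with WT, Wfs1HZ and Wfs1KO side by side and Wfs1HZ replicate 2 drawn as a star. Gabrp (0.92 to 19.55 RPKM) and Gabra4 (2.18 to 4.39 RPKM) lie above the rest in nearly every library, and among the 16 lower subunits the star is on top in 12.

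The remaining lists gave no gene with an unadjusted limma p under 0.05 in any comparison, over 4 GABA-B auxiliary proteins, 11 scaffold and trafficking genes and 5 chloride cotransporters. The GABA-B auxiliary subunit Kctd12 had 9.57, 9.77 and 9.09 RPKM in WT, Wfs1HZ and Wfs1KO, above Kctd12b (3.64, 2.00 and 3.43 RPKM) and Kctd8 (1.23, 1.32 and 1.53 RPKM). Gabarap, which links GABA-A receptors to microtubules and belongs to an autophagy family, had 211, 172 and 248 RPKM, its relative Gabarapl1 146, 169 and 181 RPKM, and the ubiquilin Ubqln1 42.8, 37.5 and 43.8 RPKM. The chloride gradient that sets the direction of GABA-A currents depends on importers such as Slc12a2 (17.1, 23.3 and 20.7 RPKM) and exporters such as Slc12a7 (7.08, 8.30 and 7.40 RPKM) and Slc12a4 (2.43, 2.70 and 2.44 RPKM).

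Markers of other cells were set beside these genes. Neuron markers, 7 in all, summed to 12.5 to 17.1 RPKM in WT, 11.7 to 26.1 in Wfs1HZ and 10.1 to 18.9 in Wfs1KO, with 0 of 7 at an unadjusted limma p under 0.05 in any comparison. Delta cell markers summed to 2360 to 5030, 2510 to 5930 and 1880 to 5430 RPKM. Endothelial markers summed to 21.7 to 54.9 RPKM in WT, 20.0 to 99.3 in Wfs1HZ and 54.7 to 67.1 in Wfs1KO. Between Wfs1KO and WT, 1 of 5 was higher at an unadjusted limma p under 0.05, and 1 of 5 ductal markers was higher as well, where 3.91% of all entries were. The part of these cells in the levels of the GABA genes was not tested.

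The entries most like each gene were ranked by Pearson's r of log2 values over the 12 libraries, among 13356 entries with a mean of at least 1 RPKM, as a description. For Gad1 they were Trpm5 (r 0.906), a cation channel of beta cells, Cntnap2 (0.902) and Kcnj12 (0.901), and with genotype means subtracted they were Irgm1 (0.937), Rela (0.899) and Ube2l6 (0.897), so none of the leading entries was the same once genotype was removed. For Gabbr2, Tmem163 led both with (0.940) and without (0.966) genotype means, and for Aldh5a1 the leaders were Uchl1 (0.966) and, with genotype means subtracted, Nap1l5 (0.992). Abat was closest to Vdr (0.951), Gabbr1 to Dnalc1 (0.944) and Gabra4 to Sbpl (0.876).

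By the GENCODE M21 annotation of GRCm38, the same assembly as mm10, both decarboxylase genes lie on the forward strand of chromosome 2, Gad1 from 70553072 to 70602014 and Gad2 from 22622205 to 22693874. Slc32a1 is on the same chromosome, from 158610767 to 158615748. Abat spans 8513429 to 8621568 on chromosome 16, Aldh5a1 24907579 to 24937661 on chromosome 13 and Slc6a13 121300227 to 121337733 on chromosome 6. The receptor genes are Gabbr1 at 37045966 to 37075067 on chromosome 17, Gabbr2 at 46662305 to 46991873 on chromosome 4 and Gabra4 at 71569749 to 71658308 on chromosome 5. Chromosome 5 also holds Wfs1, from 36966104 to 36989205.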

How the data were processed

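Islet RNA of 12 mice, 4 per genotype, was analysed, with genotype and replicate number from the sample labels. The authors made amplified cDNA from total RNA, sequenced 75 bp forward and 35 bp reverse reads on a SOLiD instrument, mapped them to mm10 with LifeScope and deposited RPKM values per animal, without log transformation. The counting tool and gene annotation are not given in the sources used here. Wrongly assigned reads of overlapping genes cannot be seen in such values.

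RPKM were used as deposited, as log2(RPKM + 0.1). Each pair of genotypes was fitted separately with limma 3.58.1 (R 4.3.3) with a variance trend, and p-values were Benjamini-Hochberg adjusted over 21701 entries with a mean of at least 0.1 RPKM. The fit was checked on simulated data. Single values were compared by exact two-sided permutation of the log2 means. Correlations used permutation p-values and were added after the data were seen. The rest was done in Python 3.11.15 with scipy 1.17.1, numpy 2.4.6 and pandas 2.3.3, and plots with matplotlib 3.10.9.

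RPKM hold no counts. The depth behind them was estimated from short RNA genes under 200 nt, whose RPKM step by whole reads, at 2195000 to 9566000 reads. For each library the depth was taken that put the most of these values near whole numbers. At that depth 73.1% to 84.0% of them were within 0.1 read of a whole number. This share is raised by the choice and is no separate check. The estimated depth is well below the sequenced reads the study gives per sample, so read numbers are approximate. At that depth 3 reads on 2 kb equal 0.157 to 0.683 RPKM, counting error only. Reads of a gene were approximated as RPKM times the longest annotated transcript and this depth.

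The genes and lists were chosen with earlier results of these data known. All 9 genes are given in full, and from the wider lists those with an unadjusted p under 0.05 and the 3 with the highest mean, and Slc6a11, Slc6a12 and Gabrr2 were named after their values were seen. Some genes of these lists are not reported here, and the counts and marker means are over the others. Alternatives were pseudocounts of 1 and 0.01, quantile and median-of-ratios scaling, dropping the filter or raising it to 1 RPKM, 1 fit of all 12 samples, no variance trend, sample weights, a replicate block and each animal left out. Whether samples come from littermates is not stated for the animals sequenced.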

Additional observations from a re-analysis of the deposited data

Results flagged for a closer look

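In 3 of 27 sets of 4 animals (9 genes in 3 genotypes) 1 animal lay far from the other 3 by Dixon's criterion, and chance alone gives about 1 in 20. Gad2 was at 2.49 RPKM in Wfs1HZ replicate 2, where the other Wfs1HZ animals had 0.07 to 0.47. Gabbr1 was at 2.86 RPKM in WT replicate 1, an outlying value because the other WT animals lay between 2.28 and 2.29. Gabbr1 was also at 1.51 RPKM in Wfs1KO replicate 3, where the other Wfs1KO animals had 3.24 to 3.50. Wfs1HZ replicate 2 and Wfs1KO replicate 3 differ from most libraries in their acinar markers, which summed to 7880 and 253000 RPKM, and the part of this in the values was not tested.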

How the results depend on the processing

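Gad1 stayed lower in Wfs1KO under all 18 alternatives, at -2.99 to -1.89 against WT (limma adjusted p 0.142 to 0.925) and -3.02 to -1.80 against Wfs1HZ (adjusted p 0.057 to 1), always with an unadjusted p under 0.05. Of 426 values of the members' log2 fold changes under alternatives, 382 kept their direction, and the 44 that turned were all of differences under 0.5. The cause of the changes was not tested, and levels under about 3 reads are not measurable at these depths.

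Entries with an FDR under 0.05 numbered 3 in Wfs1KO vs WT, 0 with a pseudocount of 1, 5 with quantile scaling, 1 with all samples in 1 fit, and 0 to 1 with an animal left out. In Wfs1KO vs Wfs1HZ they numbered 0, 1 with quantile scaling and 5 with sample weights, and in Wfs1HZ vs WT 0, 1 without the filter and 2 without the variance trend. Members with an unadjusted p under 0.05 in Wfs1KO vs WT numbered 2 with sample weights (Aldh5a1 besides Gad1) and 1 to 2 with an animal left out, and in Wfs1HZ vs WT 0 to 1. The share of higher entries among those with an unadjusted p under 0.05 was 69.2% in Wfs1KO vs WT, 56.6% with median-of-ratios and 46.8% with quantile scaling, and 69.2%, 49.8% and 51.2% in Wfs1KO vs Wfs1HZ.

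Same-numbered animals did not all deviate together, with r of -0.238 to 0.111 in Wfs1KO vs WT, -0.281 to 0.115 in Wfs1KO vs Wfs1HZ and -0.067 to 0.337 in Wfs1HZ vs WT, where replicates 2 and 4 correlated best with their own number. The numbers were not taken as pairs. With the replicate block 0 entries had an FDR under 0.05 in Wfs1KO vs WT, and the Gad1 value was -2.69 with an adjusted p of 0.925.

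Gad1 relative to beta cell markers was -2.61 to -1.96 (Wfs1KO vs WT) and -2.66 to -2.01 (Wfs1KO vs Wfs1HZ) with an animal left out, at an exact permutation p of 0.0286 without a Wfs1KO animal and 0.0571 without an animal of the other genotype. Its Wfs1HZ vs WT difference of 0.05 became -0.03 with a pseudocount of 0.01, -0.15 without Ins1, Ins2 and Iapp, and -0.06 to 0.18 with an animal left out. Gad1 relative to Gad2 in Wfs1HZ vs WT, -0.13, became 0.06 with a pseudocount of 0.01 and -0.82 to 1.02 with an animal left out.

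In Wfs1KO vs WT, Slc6a13 turned to -0.34 with quantile scaling and -0.10 with sample weights. In Wfs1KO vs Wfs1HZ, Slc6a13 turned to 0.18 with a pseudocount of 0.01, Abat to -0.04 with median-of-ratios scaling and -0.14 with weights, Gabbr2 to 0.19 with quantile scaling and Gad2 to 0.52 with weights. In Wfs1HZ vs WT, Gad2 turned to -0.18 with a pseudocount of 0.01, -0.01 with median-of-ratios scaling, -0.30 with quantile scaling and -0.66 with weights, Slc6a13 to -0.07 with a pseudocount of 0.01 and -0.12 with quantile scaling, Gabra4 to -0.06 with quantile scaling and -0.10 with weights, and Gad1 to 0.39 with weights.

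With an animal left out, values that turned ranged over -0.39 to 0.18 (Gad2), -0.32 to 0.15 (Abat) and -0.15 to 0.21 (Slc6a13) in Wfs1KO vs WT. In Wfs1KO vs Wfs1HZ they ranged over -0.72 to 0.59 (Gad2), -0.17 to 0.30 (Abat), -0.38 to 0.27 (Aldh5a1), -0.75 to 0.33 (Slc6a13), -0.71 to 0.02 (Gabbr1) and -0.40 to 0.19 (Gabbr2). In Wfs1HZ vs WT they ranged over -0.42 to 0.24 (Gad1), -0.79 to 0.52 (Gad2), -0.25 to 0.83 (Slc6a13) and -0.12 to 0.14 (Gabra4). Of the 28 turns with an animal left out, 9 came without Wfs1HZ replicate 2.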
